A study of Mus musculus with 7 samples.

Results

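The Elavl and Celf families are 2 groups of RNA-binding proteins, and their members here were the gene records named Elavl1 to Elavl4 and Celf1 to Celf6, with every exon bin that the exon-level files list under them. These were 10 of 38924 gene records and 255 of 359565 exon bins. RNA-seq had been made from polyadenylated RNA of adult mouse hippocampus in 7 libraries. There were 3 libraries of Ammon's horn (the hippocampal region that holds the CA fields) from mice with a homozygous deletion of Khdrbs3 (KO), 1 library of wild-type dentate gyrus (the region of the granule cells) and 3 libraries of wild-type Ammon's horn (WT). Khdrbs3 encodes an RNA-binding splicing regulator also called T-STAR, and the null allele was recorded as crossed onto C57Bl6 for 8 generations in the labels of all groups. Whether the libraries stand for separate mice is not stated in the labels, so each p-value covers only library-to-library spread, which may be partly technical.

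ELAVL proteins bind AU- and U-rich elements, mostly in 3' untranslated regions and introns, and are known for stabilising the messages they bind and for guiding alternative splicing. Elavl1 encodes HuR, which is made in nearly all cells, while Elavl2 (HuB), Elavl3 (HuC) and Elavl4 (HuD) are known as neuronal members. CELF proteins bind GU-rich elements. Celf1 and Celf2 are known for promoting decay of GU-rich messages and for regulating alternative splicing in many tissues, and Celf3 to Celf6 are known mainly from the nervous system. Both families carry 3 RNA-recognition motifs, with a linker before the last one that alternative exons can lengthen.

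That linker, or hinge, holds a 39-base coding exon in each of the neuronal Elavl genes, and it is shown here because it separates them from Elavl1 and was followed in every library. The sequences are from GENCODE M21 transcripts in mm10, written in the sense of the messenger RNA, with the exon in capitals and 15 bases of each neighbouring exon in lower case. For Elavl1 the junction at the corresponding place is shown, 15 bases from each side, with no exon between them. The Elavl2 exon lies at chr4:91254141-91254179, the Elavl3 exon at chr9:22024674-22024712 and the Elavl4 exon at chr4:110209740-110209778, all on the minus strand.
Elavl2: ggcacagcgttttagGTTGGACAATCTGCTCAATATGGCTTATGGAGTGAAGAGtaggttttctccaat
Elavl3: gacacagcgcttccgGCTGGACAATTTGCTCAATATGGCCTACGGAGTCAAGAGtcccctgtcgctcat
Elavl4: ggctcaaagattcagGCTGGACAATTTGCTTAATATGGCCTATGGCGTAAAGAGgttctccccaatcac
Elavl1: ggcacagagattcaggttctcccctatggg
The Elavl2 and Elavl3 exons were identical at 34 of 39 bases, the Elavl2 and Elavl4 exons at 33 and the Elavl3 and Elavl4 exons at 35. In Elavl2 the first 3 bases printed after the exon are carried by 4 annotated transcripts and left out by 6. In Elavl4 the next exon can begin 42 bases further upstream, at chr4:110206660-110206701 on the minus strand, which 2 annotated transcripts include. The capitals below are that segment, which lengthens the same hinge.
Elavl4, longer form: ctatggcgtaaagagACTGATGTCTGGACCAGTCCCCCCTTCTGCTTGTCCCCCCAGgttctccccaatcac
A segment of 12 bases in Celf1, at chr2:91006620-91006631 on the plus strand, is carried by 8 annotated transcripts and left out by 1.
Celf1: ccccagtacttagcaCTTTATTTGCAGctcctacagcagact

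The libraries held 50230733 to 67692326 counts in the gene table and 29698245 to 39904606 in the exon bins. In bin 2 of Khdrbs3 there were 6, 9 and 7 reads in KO, 506 in the dentate gyrus and 808, 1103 and 964 in WT, so this bin sets the KO libraries apart as labelled. Over the whole Khdrbs3 gene record the levels were 198, 203 and 197 CPM (counts scaled to library size) in KO, 78.8 CPM in the dentate gyrus and 142, 143 and 134 CPM in WT, which goes the other way. The summed level of 4 granule cell markers was 605 CPM in the dentate gyrus and 121 to 146 CPM in WT, and that of 4 CA1 markers was 91.2 CPM in the dentate gyrus and 699 to 724 CPM in WT, as their labels name them. Choroid plexus markers (10 genes) stood apart in individual libraries, at 1189, 174 and 1176 CPM in KO, 511 CPM in the dentate gyrus and 356, 206 and 181 CPM in WT. Oligodendrocyte markers (6 genes) were at 3165 to 3388 CPM in KO, 1329 CPM in the dentate gyrus and 3766 to 3861 CPM in WT.

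All 10 members were read in every library. Levels of different genes can be set side by side only per length, and an exon of 226 bases that is present in all 4 Elavl genes served for this, as CPM of the exon-bin total per kb of exon. Elavl3 had 52.2 ± 1.58 in KO, 54.4 in the dentate gyrus and 50.6 ± 4.58 in WT (SD, n = 3 for KO and WT, 1 for the dentate gyrus). Elavl2 had 38.9 ± 1.40 in KO, 27.6 in the dentate gyrus and 38.4 ± 3.60 in WT. Elavl4 had 27.9 ± 1.59 in KO, 12.9 in the dentate gyrus and 26.5 ± 1.31 in WT. In Ammon's horn each neuronal member stood above Elavl1, which had 12.8 ± 0.570 in KO and 11.7 ± 1.62 in WT. Over the 6 Ammon's horn libraries the ranges of the 4 genes did not overlap, in the order Elavl3, Elavl2, Elavl4 and Elavl1. In the dentate gyrus library Elavl1 had 17.2 on this scale and stood above Elavl4.

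For the Celf genes the comparison used an exon of 80 bases (in Celf5 a bin of 79 bases, which 7 annotated transcripts extend by 1 base). Reads per base differ between exons of 1 gene, so a single exon gives only a coarse level. In WT 1, for instance, the 80-base exon of Celf6 had 74 reads and its next exon, of 144 bases, had 43. An exon of 83 bases, also found in these genes, gave another order. Celf3 had 9, 26 and 15 reads there in WT, the fewest in each library. Celf2 had 184, 266 and 311 and Celf5 had 139, 197 and 176. Celf1 had 62, 94 and 88 and Celf6 had 50, 67 and 35. The order given next therefore holds for the 80-base exon alone. In that exon, among the Celf genes other than Celf4, Celf2 and Celf3 were the highest and could not be ordered. Their ranges over the 6 Ammon's horn libraries were 70.9 to 99.0 for Celf2 and 70.5 to 95.5 for Celf3 on the same scale. Celf5 had 60.7 to 75.9 and lay below both of them within every library, although the ranges across libraries overlapped. Celf1 followed with 32.3 to 47.4, and Celf6 with 23.0 to 33.2, and the ranges of these neighbours overlapped. In the dentate gyrus library the levels were 122 for Celf2, 112 for Celf3, 78.9 for Celf5, 67.6 for Celf1 and 24.1 for Celf6. Exon bins of Celf4 could not be placed on the annotation used here, so it has no level per length and no place in this order. Over the gene record, not scaled to length, it had 424, 379 and 423 CPM in WT, beside 338, 308 and 340 CPM for Celf2.

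**Figure D1:**
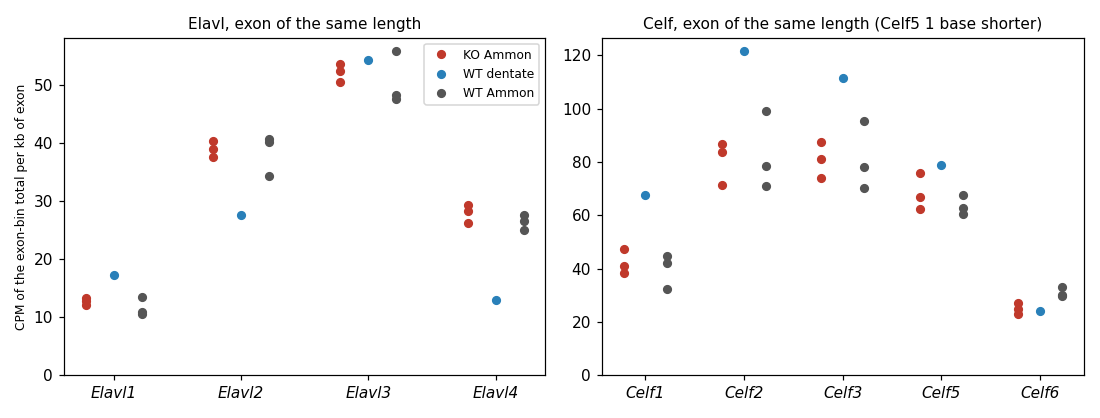
CPM of the exon-bin total per kb of exon, in an exon of the same length within each family (left, Elavl, 226 bases; right, Celf, 79 or 80 bases); each point is 1 library, KO Ammon's horn in red, WT dentate gyrus in blue and WT Ammon's horn in grey. The 4 Elavl genes form separate bands in Ammon's horn, and Elavl4 falls to 12.9 in the dentate gyrus library.

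The first comparison asks whether loss of Khdrbs3 changed these genes in Ammon's horn. None of the 10 members passed the test (edgeR's quasi-likelihood test, Benjamini-Hochberg adjusted p under 0.05 over all genes tested), against a background of 0.0745% of genes called (0.0657% higher and 0.00876% lower). At an unadjusted p under 0.05 there was 1 member, Elavl1, where 8.38% of all genes tested passed, and DESeq2 also called 0 members. The KO and WT libraries overlapped for 9 of the 10 members; over all genes, 13.3% were free of overlap, and in 6.83% it was the KO libraries that were higher.

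Elavl1, which encodes HuR, was the 1 member of 10 free of overlap, where 13.3% of all genes were. Its levels were 53.6, 49.9 and 56.7 CPM in KO and 47.0, 45.3 and 48.8 CPM in WT. Every KO library lay above every WT library. The log2 fold change was 0.18 (SE 0.06, 95% interval 0.05 to 0.31), with an edgeR adjusted p of 0.470, and 0.14 when the exon bins were summed instead, a fit that called 0.0523% of genes. The choroid plexus sums of the same libraries were 1189, 174 and 1176 CPM in KO and 356, 206 and 181 CPM in WT. With the mean log2 CPM of the 10 choroid plexus markers as a covariate, the log2 fold change was 0.13 (edgeR adjusted p = 0.738). The highest sums, 1189 and 1176 CPM, were both in KO libraries, so this fit cannot separate choroid plexus content from genotype. Besides oligodendrocyte markers, 3 other marker sums separated KO from WT without overlap. Microglia markers (7 genes) were at 349 to 363 CPM in KO and 387 to 399 CPM in WT, CA1 markers at 640 to 674 CPM in KO and 699 to 724 CPM in WT, and interneuron markers at 642 to 679 CPM in KO and 560 to 635 CPM in WT. The part of cell content in the Elavl1 difference was not tested.

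The neuronal Elavl genes lay within the WT spread or close to it. Elavl4 had 54.9, 56.8 and 62.6 CPM in KO and 59.9, 52.1 and 53.6 CPM in WT, a log2 fold change of 0.07 (95% interval -0.08 to 0.23). Elavl2 had 74.6, 77.0 and 76.9 CPM in KO and 79.6, 67.5 and 79.8 CPM in WT, a log2 fold change of 0.01 (95% interval -0.14 to 0.16). Elavl3 had 182, 193 and 186 CPM in KO and 187, 197 and 166 CPM in WT, a log2 fold change of 0.03 (95% interval -0.11 to 0.17). In all of them the KO libraries were interleaved with the WT libraries.

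Of the Celf genes, Celf2 had the highest level of KO relative to WT, with 339, 345 and 360 CPM in KO and 338, 308 and 340 CPM in WT (log2 fold change 0.08, 95% interval -0.05 to 0.21). Celf6 had the lowest, with 22.9, 20.7 and 19.3 CPM in KO and 20.7, 23.9 and 22.9 CPM in WT (log2 fold change -0.10, 95% interval -0.29 to 0.08). In both the groups overlapped. Celf1 had 136, 149 and 142 CPM in KO and 140, 134 and 143 CPM in WT (log2 fold change 0.03). Celf3 had 73.1, 76.2 and 84.1 CPM in KO and 75.4, 82.2 and 69.7 CPM in WT (0.04). The remaining pair, known mainly from neurons, overlapped as well. Celf4 had 410, 408 and 383 CPM in KO and 424, 379 and 423 CPM in WT (-0.03). Celf5 had 126, 135 and 135 CPM in KO and 131, 134 and 128 CPM in WT (0.01). For the 9 members other than Elavl1, the 95% intervals reached no lower than -0.29 and no higher than 0.23 on the log2 scale, which is the size of change that these libraries leave possible.

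**Figure D2:**
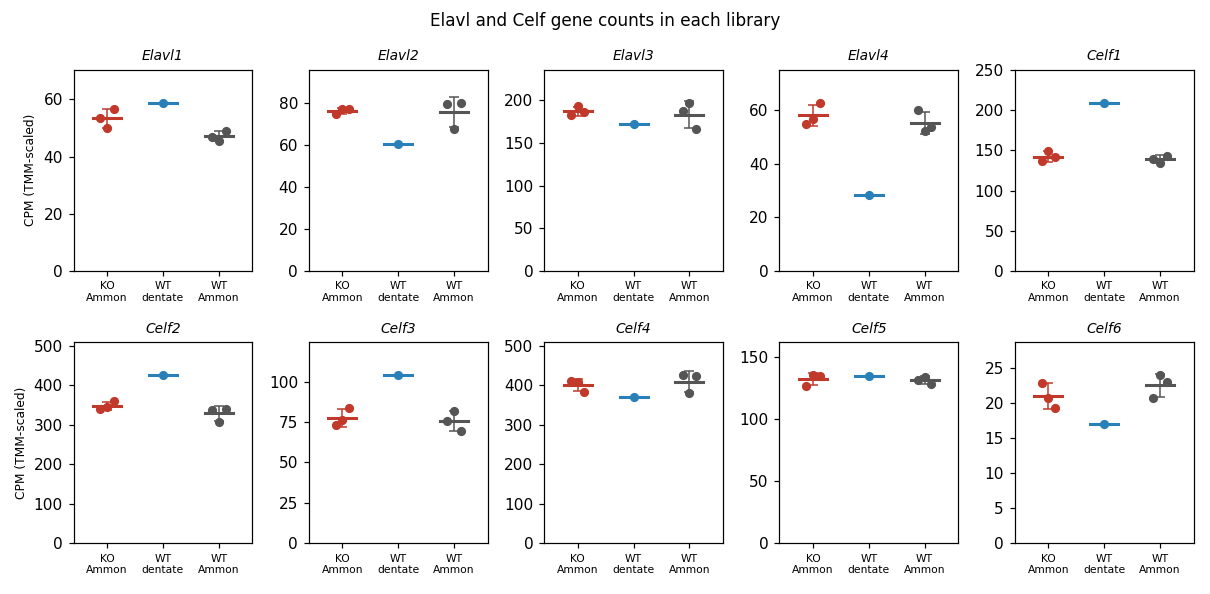
TMM-scaled CPM for each member in each library: KO Ammon's horn (red), WT dentate gyrus (blue) and WT Ammon's horn (grey), with the mean as a line and the SD as a bar where there are 3 libraries. Elavl1 is the member whose KO and WT points separate, as they do for 13.3% of all genes. Elavl4 in the dentate gyrus, at 28.4 CPM, lies below all its WT points.

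The second comparison sets the dentate gyrus against Ammon's horn in wild-type mice. With 1 dentate gyrus library, its spread was taken to be that of the Ammon's horn groups, and the p-values below rest on that. In bulk tissue, fewer cells of a type and less RNA per cell cannot be told apart. Of the 10 members 7 passed the test, 4 higher and 3 lower, against 22% of all genes tested (11.2% higher and 10.9% lower). Beside the marker sums above, neuroblast markers (5 genes) were at 54.5 CPM in the dentate gyrus and 22.4 to 27.9 CPM in WT, interneuron markers (8 genes) at 490 CPM in the dentate gyrus and 560 to 635 CPM in WT, and astrocyte markers (5 genes) at 1378 CPM in the dentate gyrus and 1196 to 1294 CPM in WT. Singly, none of the astrocyte markers passed, and 3 of the 5 had a positive log2 fold change. Among the interneuron markers 5 passed as lower and 1 as higher. The part of such differences in cell content in the results was not tested. The dentate gyrus library lay outside the WT range for 9 of 10 members, and for 71.8% of all genes.

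Elavl4, which encodes the neuronal protein HuD, had the largest fold. It had 28.4 CPM in the dentate gyrus and 59.9, 52.1 and 53.6 CPM in WT. The dentate gyrus level was about 0.516 times that of WT, below every WT library, and the log2 fold change was -0.96 (SE 0.10; adjusted p = 1.4e-04 in edgeR). Elavl2, which encodes HuB, had 60.4 CPM in the dentate gyrus and 79.6, 67.5 and 79.8 CPM in WT, below the WT range (log2 fold change -0.32, SE 0.10, edgeR adjusted p = 0.0328). This call was lost without WT 1, WT 3, KO 2 or KO 3, and in the 4 wild-type libraries alone, where the adjusted p reached 0.0898. Elavl3, the HuC gene, had 173 CPM in the dentate gyrus and 187, 197 and 166 CPM in WT, within the WT range (log2 fold change -0.09, 95% interval -0.29 to 0.12, edgeR adjusted p = 0.571). Elavl1 was higher, with 58.7 CPM in the dentate gyrus and 47.0, 45.3 and 48.8 CPM in WT (log2 fold change 0.32, SE 0.08; adjusted p by edgeR 0.0181). Of the neuronal Elavl genes 2 thus passed, both lower. The summed level of 5 general neuron markers was 4032 CPM in the dentate gyrus and 5022 to 5526 CPM in WT. These markers were mixed: 3 of them passed as lower (Snap25, Syt1 and Tubb3). Rbfox3 (log2 fold change 0.21) and Map2 (-0.007) did not pass.

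Celf1, a regulator of splicing and of GU-rich message decay, was the member with the largest positive change. It had 209 CPM in the dentate gyrus and 140, 134 and 143 CPM in WT, above every WT library (log2 fold change 0.59, SE 0.07; edgeR's adjusted p was 3.7e-04). Celf3 had 104 CPM in the dentate gyrus and 75.4, 82.2 and 69.7 CPM in WT (log2 fold change 0.46, SE 0.10, edgeR adjusted p = 0.00757). Celf2 had 425 CPM in the dentate gyrus and 338, 308 and 340 CPM in WT (log2 fold change 0.37, SE 0.08, edgeR adjusted p = 0.00749). In all 3 the dentate gyrus library was above the WT range.

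Celf6 was the Celf gene that fell, with 16.9 CPM in the dentate gyrus and 20.7, 23.9 and 22.9 CPM in WT (log2 fold change -0.41, SE 0.12, edgeR adjusted p = 0.0370), and the call was lost without WT 2, WT 3 or KO 2, with an adjusted p of up to 0.0777. Celf4 had 370 CPM in the dentate gyrus and 424, 379 and 423 CPM in WT (log2 fold change -0.14, 95% interval -0.33 to 0.05, edgeR adjusted p = 0.273). Celf5 had 135 CPM in the dentate gyrus and 131, 134 and 128 CPM in WT (log2 fold change 0.04, 95% interval -0.12 to 0.19, edgeR adjusted p = 0.776). Celf4 and Celf5 lay just outside their WT ranges and did not pass the test. Summing the exon bins of each gene gave the same 7 calls, where 29.3% of genes passed.

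**Figure D3:**
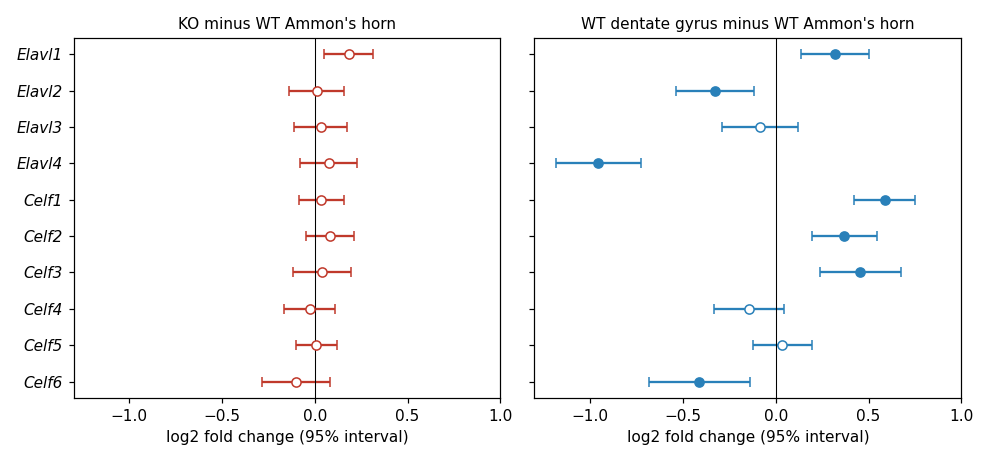
Log2 fold changes with 95% intervals for the 10 members, KO minus WT Ammon's horn (left) and WT dentate gyrus minus WT Ammon's horn (right); filled points passed an adjusted p of 0.05. No member passed on the left, and 7 passed on the right, from Elavl4 at -0.96 to Celf1 at 0.59.

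Several member records overlap other gene records in position, and how many reads they share was not measured. The Celf3 record overlaps Riiad1 on the other strand (up to 1255 counts, where Celf3 had at least 3948), and the Celf5 record overlaps the antisense gene Gm16105 (up to 3146 counts, where Celf5 had at least 6829). On the same strand, the Celf2 record overlaps Gm26315 (up to 947 counts, where Celf2 had at least 17689). Strandedness of the counting is not given in the sources used here, so those levels are uncertain. The longest run of identical bases between transcripts of any pair of members was 52 bases, between Elavl3 and Celf6, and 29 bases within the Elavl family, between Elavl3 and Elavl4.

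Among exon bins, 176 of the 255 had enough reads to be tested (at least 10 in at least 3 libraries). For each, usage is the change of the bin relative to the rest of its gene. Between KO and WT no member bin passed (edgeR's diffSpliceDGE, adjusted p under 0.05), against 0.00301% of all bins (0.00241% used more). At an unadjusted p under 0.05 there was 1, bin 5 of Elavl1, a coding exon of 188 bases, where 1.72% of all bins passed. It held 4.52, 5.20 and 3.46% of the gene's bin reads in KO and 4.68, 5.18 and 6.68% in WT. The groups overlapped (usage log2 fold change -0.34, with SE 0.15 and an adjusted p of 1 in edgeR). When 1 library was left out, this value ran from -0.47 (without KO 2) to -0.17 (without WT 3). In the other members the bin with the smallest p was bin 22 in Elavl2, bin 7 in Elavl3, bin 17 in Elavl4, bin 9 in Celf1, bin 18 in Celf2, bin 4 in Celf3, bin 14 in Celf4, bin 17 in Celf5 and bin 10 in Celf6, with unadjusted p between 0.0748 (Elavl4) and 0.539 (Elavl3).

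The 39-base hinge exons shown above had overlapping shares in KO and WT. In Elavl2 the exon took 3.30, 3.59 and 3.85% of the gene's bin reads in KO, 3.67% in the dentate gyrus and 3.22, 3.58 and 3.91% in WT. In Elavl3 it took 2.73, 3.19 and 3.53% in KO, 3.24% in the dentate gyrus and 2.99, 3.18 and 3.24% in WT. In Elavl4 it took 4.03, 3.70 and 3.76% in KO, 3.61% in the dentate gyrus and 3.78, 3.95 and 4.50% in WT. In none of the 3 genes did the KO and WT shares separate. The usage log2 fold changes between KO and WT were 0.00018 in Elavl2 (SE 0.16), 0.0057 in Elavl3 (SE 0.11) and -0.09 in Elavl4 (SE 0.15). Between the dentate gyrus and WT they were 0.04 (SE 0.21), 0.05 (SE 0.15) and -0.17 (SE 0.25), although the Elavl4 gene itself was lower there. A read that spans neighbouring bins appears to be counted in each, so a bin this short shares most of its reads with its neighbours, and a share measures inclusion only coarsely.

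The 42-base segment of Elavl4 took 2.55, 2.01 and 2.12% of the gene's bin reads in KO, 2.43% in the dentate gyrus and 2.35, 2.41 and 2.29% in WT, with overlapping groups. The 12-base segment of Celf1 took 1.23, 1.32 and 1.02% in KO, 1.43% in the dentate gyrus and 1.37, 1.18 and 1.55% in WT. A 144-base coding exon of Celf2 at chr2:6549832-6549975, which 11 annotated transcripts carry and 4 skip, took 2.51, 2.48 and 2.91% in KO, 2.78% in the dentate gyrus and 2.46, 2.50 and 2.52% in WT. Neither KO nor the dentate gyrus passed the test for any of these. In the 6 members placed from all transcripts, 22 whole coding exons are absent from some annotated transcripts that span them. Several of these are alternative first exons. Of the 22, 8 had at most 10 reads in every library (bins 15, 20, 21 and 22 of Elavl4, 19 and 59 of Celf2, 20 of Celf5 and 15 of Celf6), and 14 were tested. Besides the Elavl2, Elavl4 and Celf2 exons described, those tested were bin 17 of Elavl2, bins 17 and 19 of Elavl4, bins 42, 50 and 52 of Celf2, bins 16 and 19 of Celf5 and bins 7, 10 and 18 of Celf6. Over the 14 exons, usage log2 fold changes ran from -0.37 to 0.22 between KO and WT and from -0.83 to 0.76 between the dentate gyrus and WT, and none passed. The dentate gyrus extremes came from first exons, bin 19 of Elavl4 and bin 52 of Celf2. The lower KO extreme also came from a first exon, bin 17 of Elavl4. These values concern transcript starts rather than skipping.

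**Figure D4:**
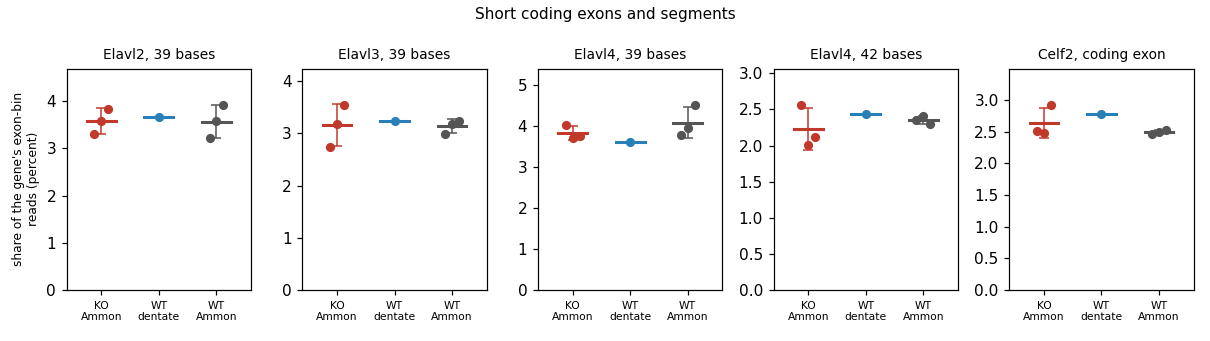
Share of the gene's exon-bin reads, in percent, that fell in 5 short coding exons or segments, in KO Ammon's horn (red), WT dentate gyrus (blue) and WT Ammon's horn (grey), with the mean as a line and the SD as a bar where there are 3 libraries. KO and WT points overlap in the Elavl exons, which stay between 2.01% and 4.50%.

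Between the dentate gyrus and WT, 1 member bin passed, used more, against 0.213% of all bins (0.186% used more). This was bin 6 of Celf6 at chr9:59589339-59589519, a noncoding first exon of 181 bases that 2 annotated transcripts start from. It lies downstream of bin 3, a coding first exon that 4 other annotated transcripts start from. Bin 6 had 30 reads in the dentate gyrus, 12, 12 and 7 in KO and 12, 11 and 12 in WT. Its share of the Celf6 bin reads was 3.13% in the dentate gyrus and 0.955 ± 0.158% in WT (SD, n = 3), above every Ammon's horn library. The usage log2 fold change was 1.73 (SE 0.38, edgeR adjusted p = 0.0228). Without WT 2 it was 1.59 and did not pass (edgeR adjusted p = 0.105), and at a minimum of 20 reads the bin was not tested.

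The upstream exons of Celf6, bins 3 and 4, had summed bin counts of 51 in the dentate gyrus and 90, 125 and 71 in WT. A read over both bins may be counted in each. The ratio of the count at the downstream start to this sum was 0.588 in the dentate gyrus. It was 0.120, 0.111 and 0.0714 in KO and 0.133, 0.0880 and 0.169 in WT. This ratio was formed after the values were seen and has no test. The total of Celf6 was lower in the same library.

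In Celf2 no bin passed. Of its 6 bins at an unadjusted p under 0.05, 4 lay at its first exons, and the others, bins 2 and 10, were noncoding. Bin 52, a coding first exon of 41 bases, took 0.470% of the gene's bin reads in the dentate gyrus and 0.279, 0.296 and 0.257% in WT (usage log2 fold change 0.76, SE 0.29, edgeR adjusted p = 0.810). Bin 66, in a noncoding first exon further upstream, took 0.140% in the dentate gyrus and 0.229, 0.265 and 0.294% in WT (usage log2 fold change -0.91, with SE 0.39 and an adjusted p of 1 in edgeR). The usage log2 fold change was 0.81 in bin 53 and -1.14 in bin 68. The bin counts of the downstream first exons (bins 50 to 55) summed to 266 in the dentate gyrus and 107, 162 and 140 in WT. Those of the upstream ones (bins 65 to 68) summed to 95 in the dentate gyrus and 87, 118 and 133 in WT. Neighbouring bins here are pieces of the same exon, so these sums can hold the same read more than once. The downstream to upstream ratio was 2.80 in the dentate gyrus, 1.72, 1.09 and 0.923 in KO and 1.23, 1.37 and 1.05 in WT. These groups of bins were chosen after their values were seen, and the ratio depends on how the exons were cut into bins, so it is a description.

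**Figure D5:**
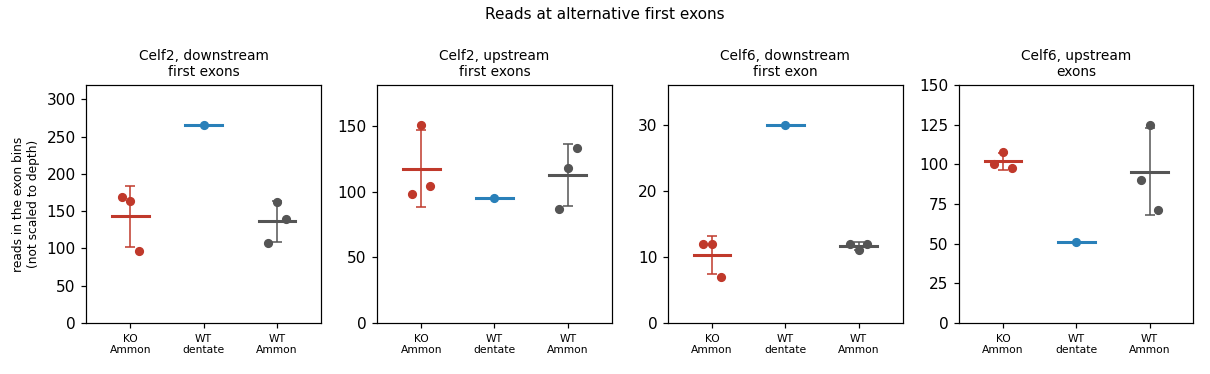
Summed exon-bin counts, not scaled to depth, at alternative first exons of Celf2 and at the downstream first exon and the upstream exons of Celf6, in KO Ammon's horn (red), WT dentate gyrus (blue) and WT Ammon's horn (grey), with the mean as a line and the SD as a bar where there are 3 libraries. A read over several bins can enter a sum more than once. The dentate gyrus library has the highest counts at both downstream starts, 266 in Celf2 and 30 in Celf6. Its count at the Celf6 upstream exons is below every WT library.

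At an unadjusted p under 0.05, 10 member bins passed in the dentate gyrus, 7 used more and 3 used less, or 5.68% of those tested, against 3.89% of all bins. The members with none were Elavl1, Elavl2, Elavl3, Elavl4, Celf4 and Celf5. Their bins with the smallest p were bin 6 in Elavl1, bin 22 in Elavl2, bin 6 in Elavl3, bin 19 in Elavl4, bin 3 in Celf4 and bin 15 in Celf5, with unadjusted p between 0.0776 (Elavl4) and 0.477 (Elavl1). In Celf1 they were bins 13 and 14, coding bins with usage log2 fold changes of 0.50 and 0.46, and in Celf3 bin 1, a coding bin, at 0.33. Bin 19 of Elavl4, a first exon of 295 bases, had 10 reads in the dentate gyrus and 40, 35 and 31 in WT (usage log2 fold change -0.83, SE 0.45, unadjusted p = 0.0776), and it did not pass.

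Factors that work beside these proteins were taken as a list of 23 genes, made up of AU- and GU-rich element binders, deadenylases and partners or transporters of HuR. Between KO and WT 0 of 23 passed (edgeR), with a median log2 fold change of 0.05 beside 0.0015 over all genes tested. Between the dentate gyrus and WT 12 were higher and 0 lower, where 11.2% of all genes tested were higher and 10.9% lower. The median log2 fold change was 0.29, beside -0.013 over all genes tested. The largest was Tia1, an AU-rich element binder and translational repressor, at 57.8 CPM in the dentate gyrus and a mean of 25.3 CPM in WT (log2 fold change 1.19, SE 0.15). Its relative Tial1 had a log2 fold change of 0.49. The deadenylase catalytic subunits Cnot6, Cnot6l and Pan2 were higher too, with log2 fold changes of 0.70, 0.67 and 0.66, as was Tnpo1, a nuclear import receptor, with 0.57. In the same library the Elavl1 and Celf1 to Celf3 levels were higher.

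A second list held 18 messages that others have reported as ELAVL or CELF targets. Again 0 of 18 passed between KO and WT, with a median log2 fold change of -0.01. Between the dentate gyrus and WT 3 were higher and 7 lower, beside the same 11.2% and 10.9% of all genes. The median log2 fold change was -0.18. Gap43, a growth-associated protein of axons whose message HuD is known to bind, had 48.7 CPM in the dentate gyrus and a mean of 165 CPM in WT (log2 fold change -1.76, SE 0.09). With log2 fold changes in brackets, Ache, acetylcholinesterase (-0.58), App, the amyloid precursor (-0.53), and Syt1, a synaptic vesicle calcium sensor (-0.36), were also lower. Bdnf, a neurotrophin (0.60), and Nrn1, neuritin (0.41), were higher. The reported targets that passed were thus found in both directions. The part of cell content in these differences was not tested.

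The genes whose levels ran most like Elavl4 over the 7 libraries were Prrg3 (Pearson r = 0.996), Syt2 (0.993) and Myo1d (0.992), and those most like Celf1 were Rfx3 (0.998), Dgki (0.998) and Scn3a (0.997), among 13230 genes with a mean of at least 5 CPM. These correlations share the dentate gyrus library, which is far from the others in both members, so they describe mostly that 1 library.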

How the data were processed

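Counts per gene record and per exon bin, in 7 libraries, were deposited by the authors as raw read counts. Per the submitters' processing notes, Trim Galore 0.3.5, TopHat2 2.0.8b, bedtools 2.17.0 and DESeq2 1.0.19 were used with mm10; their roles are not given in the sources used here. The gene table appears to count introns too, since its totals exceeded the exon-bin sums for most members. Bins were given positions from GENCODE M21 for 6 members from all transcripts and for 3 from 1 transcript.

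Genes were tested with edgeR 4.0.16 (TMM scaling, filterByExpr, quasi-likelihood test, R 4.3.3) and bins with diffSpliceDGE, whose natural-log coefficients were converted to log2; both were tested on simulated data. DESeq2 1.42.0, limma 3.58.1, other filters and leaving out libraries were alternatives. KO was compared in 6 libraries and the dentate gyrus in 7. All 10 members are named, with called bins, the bin of smallest p in each member and coding exons absent from some transcripts that span them. Of each list, up to 6 called genes of largest change are named. Members and lists were chosen with earlier results of these data known.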

Additional observations from a re-analysis of the deposited data

How the results depend on the processing

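No paired analysis was possible because the labels carry no replicate numbers, and the numbers used here follow the accession order. Leaving out each of 6 libraries in turn, members called between KO and WT were 0 throughout, and between the dentate gyrus and WT 5 to 7. Genes called between KO and WT were 17, and 117 with DESeq2, 8 from exon-bin sums, 4 without mitochondrial genes, 28 with the choroid plexus covariate and 11 to 55 when 1 library was left out (55 without KO 2, 11 without WT 2 or KO 1). Bins called between KO and WT were 5, and 5 to 8 when 1 library was left out (8 without WT 2 or KO 3). Bins called between the dentate gyrus and WT were 360, and 553 with limma-voom, 210 in the 4 wild-type libraries alone and 196 to 512 when 1 library was left out (196 without WT 1). Member bins called there were 1, 0 at a minimum of 20 reads, where Celf6 bin 6 was not tested, and 0 to 1 when 1 library was left out. Changes of sign were found in values near 0 that no test called: from exon-bin sums, Elavl2 (-0.013) and Celf5 (-0.0088) between KO and WT, and the Elavl3 hinge exon with limma-voom (-0.0042). Leaving out 1 library, the log2 fold changes between KO and WT ran from -0.0688 to 0.0512 in Elavl2, -0.0352 to 0.0805 in Elavl3, -0.0217 to 0.0984 in Celf3, -0.0830 to 0.00116 in Celf4 and -0.00845 to 0.0410 in Celf5. Usage between KO and WT ran from -0.0689 to 0.0778 in Elavl2 bin 6, -0.0772 to 0.0966 in Elavl3 bin 2 and -0.00458 to 0.135 in Elavl3 bin 7. Usage between the dentate gyrus and WT ran from -0.0284 to 0.119 in Elavl2 bin 6 and -0.0328 to 0.180 in Celf1 bin 20. The cause of these shifts was not tested. Of the other single-gene and single-bin values, 510 kept their direction and side of the threshold and 9 lost the call. Read numbers limit the bins: the Celf6 call rests on 30 reads in 1 library.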
